A study of Mus musculus with 21 samples.

Results

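The genes described here carry out antigen presentation by major histocompatibility complex (MHC) class I: H2-K1, H2-D1, B2m, Tap1, Tap2, Tapbp, Nlrc5, Psmb8 and Psmb9. They were chosen by name and role, are 9 of the 32285 genes in the count table, and were followed in melanoma cells and in each host cell type that standard markers named. The question put to the data was how much of the class I machinery melanoma cells transcribed beside host cells, and whether either changed between primary tumors, lung metastases and unchallenged lungs.

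The hosts of all groups were mT/mG mice, a reporter strain in which every cell carries membrane-bound tdTomato and, with no Cre present, stays red. Fragments of MT-ret melanoma, without tdTomato, were placed under the skin of young adults of both sexes, the primary tumor was removed, and lung metastases were collected later. The single-cell libraries were the malignant melanoma (MM) sorts of primary tumors and of lung metastases, the tumor microenvironment (TME) sorts of both, gated on living tdTomato+ cells with CD45+ cells removed for some, and lungs of mice that received no tumor (unchallenged lung), for which no age is stated. The labels do not say which libraries were depleted of CD45+ cells, some replicates pooled several mice (1-3), and the labels give lung as the tissue even for primary tumors. Of 24 library names, 5 held exactly the cells of another and were counted once, among them 1 named as an MM sort of a metastasis whose cells were those of a TME sort, and with the mice of replicates 1-3 joined this left 16 libraries with 638 to 30419 cells where sorted for melanoma, 303 to 5166 in the TME sorts and 1326 to 25966 in unchallenged lungs. Levels are UMIs (deduplicated transcripts) of a gene per 1000000 UMIs (CPM) of the cells of 1 type in 1 library, given for libraries with at least 20 such cells.

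Class I molecules display peptides from the inside of nearly every nucleated cell to CD8+ T cells and are sensed by natural killer (NK) cells. H2-K1 and H2-D1 are the polymorphic heavy chains and B2m the light chain that holds them at the surface. Psmb8 and Psmb9 are catalytic subunits of the immunoproteasome, which replace their constitutive counterparts when interferon acts on a cell, Tap1 and Tap2 form the transporter that carries the peptides into the endoplasmic reticulum, Tapbp (tapasin) bridges that transporter to the empty class I molecule, and Nlrc5 is the transactivator that acts on class I genes through a shared promoter module. Low transcription of this pathway is well known from melanoma cell lines, where interferon-gamma often restores it.

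On GRCm38, 7 of the 9 genes lie on chromosome 17, and Psmb9, Tap1, Psmb8 and Tap2 sit side by side within 34335 bases (chr17:34181987-34216321). H2-K1 is at chr17:33996017-34000347 on the minus strand, H2-D1 at chr17:35262730-35267499 on the plus strand and Tapbp at chr17:33915899-33929292 on the plus strand, whereas B2m is at chr2:122147686-122153083 and Nlrc5 at chr8:94434356-94527272, both on the plus strand. H2-K1 and H2-D1 have near-identical relatives in the H2-Q and H2-T groups, so the assignment of their reads is uncertain. Tap1 overlaps Psmb9 on the opposite strand, and B2m, Tap2, Psmb8, Tapbp and Nlrc5 also overlap annotated neighbours, Tapbp with Zbtb22 on its own strand.

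RefSeq promoter windows of GRCm38 (250 bases before the RefSeq start of transcription nearest to the start of the annotated gene) were matched for 7 of the 9, all but Tap2 and Nlrc5. The windows of H2-K1 (chr17:34000348-34000597, minus strand) and B2m (chr2:122147437-122147685, plus strand) are shown because they carry the elements through which NF-kappaB, interferon regulatory factors and the Nlrc5 module are known to act on class I genes. Both run 5′ to 3′, and that of B2m is shown as 249 bases, without its last base, which lies in the annotated first exon. Capitals mark matches to an NF-kappaB motif, the interferon motifs GAAANNGAAA or TTTCACTT, the X2-type letters TGACG, and CCAAT, each searched on both strands.
H2-K1 promoter: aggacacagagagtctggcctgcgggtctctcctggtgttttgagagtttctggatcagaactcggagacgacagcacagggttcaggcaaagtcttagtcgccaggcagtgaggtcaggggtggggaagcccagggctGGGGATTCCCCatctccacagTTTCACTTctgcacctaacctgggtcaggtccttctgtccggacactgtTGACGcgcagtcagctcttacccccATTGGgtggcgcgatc
B2m promoter: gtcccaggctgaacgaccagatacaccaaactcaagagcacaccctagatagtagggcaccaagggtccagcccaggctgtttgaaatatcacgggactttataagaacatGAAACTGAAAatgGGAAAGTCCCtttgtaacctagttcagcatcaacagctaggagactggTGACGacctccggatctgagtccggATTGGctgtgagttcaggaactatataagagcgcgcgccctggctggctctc

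The stretch from the NF-kappaB match to the interferon match was nearly the same in both heavy chain genes, at chr17:34000430-34000458 (minus strand) for H2-K1 and chr17:35262923-35262951 (plus strand) for H2-D1. Of its 29 bases 28 were identical, and the remaining base was A18T, counted from 1 at the 5′ end with the base of H2-K1 first. The RefSeq start of H2-D1 lies 364 bases inside the annotated gene, so this stretch of H2-D1 lies within the gene as annotated.
H2-K1 element: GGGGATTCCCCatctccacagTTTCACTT
H2-D1 element: GGGGATTCCCCatctcctcagTTTCACTT
Of all 32851 promoter windows of that length, 2.98% held GAAANNGAAA, 1.36% TTTCACTT, 7.25% the NF-kappaB motif, 17.8% TGACG and 33.8% CCAAT. The windows of Tap1 and Psmb9 overlap on opposite strands and held the same TGACG (chr17:34187470-34187474) and the same CCAAT (chr17:34187334-34187338), so these count once. That of Tapbp held CCAAT only and that of Psmb8 none of these letters, but the RefSeq starts used lie inside the annotated genes, 3579 bases from the start of Tapbp, 474 bases from that of Psmb8 and 434 bases from that of Psmb9, and the windows overlap annotated exons. A match is a run of letters and not a measured binding site.

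Melanoma cells held very few transcripts of the peptide supply genes and a moderate level of the heavy chains and B2m. Among the 12 named cell types, ordered by the median over their libraries, MM came last for H2-K1, Tap1, Tap2, Tapbp, Nlrc5, Psmb8 and Psmb9, was 10th for H2-D1, between fibroblasts and ciliated cells, and 8th for B2m, between neutrophils and fibroblasts. The name MM covers 2 clusters, judged by 9 listed markers raised against all other cells. Cluster 1 (20056 cells) raised 9 of them, and cluster 0 (29892 cells) raised 4 (Cited1, Cd63, Tyr and Cst6). Of the cells of cluster 0, which was led by genes such as Hist1h1b and Car6, 94.5% came from primary MM 4. Dct, an enzyme of pigment synthesis that cluster 0 did not raise, was at 13227 to 21070 CPM in the 5 sets of MM cells. RNA of immune cells was scarce there, with Ptprc (CD45) at 0.0336 to 2.18 CPM, Lyz2 at 0.903 to 35.6 CPM and Cd74 at 0.334 to 16 CPM. The 5 sets were the 269 MM cells among the 638 of metastasis MM 4, the 11191 of metastasis MM 5, the 1996 that metastasis TME 5 held in spite of the sort, the 30314 of primary MM 4 and the 6115 of primary MM 5. By the names kept, metastasis MM 5, metastasis TME 5 and primary MM 5 share a mouse, so the 5 sets are not independent. Types rest on clusters of these same cells, so their order is a description and was not tested. The medians pool tissues that are not equally filled: of the 83 sets of host cells (1 cell type in 1 library), 36 came from unchallenged lungs, whose mice bore no tumor, 34 from metastasis libraries and 13 from primary tumor libraries, and AT-2, B, NK, T, ciliated and club cells reached 20 cells in no primary tumor library. Over the 47 sets of tumor-bearing mice alone, a view added after seeing the data, the median of MM still lay below all 11 host types for H2-K1, Tap1, Tap2, Tapbp, Psmb8 and Psmb9, but above 2 for Nlrc5 (AT-2 and fibroblasts), 2 for H2-D1 and 4 for B2m.

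Tap1, a chain of the transporter, stood at 1.45, 4.46 and 3.90 CPM in metastasis MM 4, metastasis MM 5 and metastasis TME 5, and at 6.82 and 7.09 CPM in primary MM 4 and primary MM 5. Of the 83 host sets, 81 lay above the highest of these. The median of the host type medians was 80.0 CPM, 17.9-fold that of MM (16-fold in tumor-bearing mice), and T cells came first with 161 CPM.

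Tap2, the partner of Tap1 in the transporter, was at 2.91, 1.82 and 3.56 CPM in the metastasis sets and at 6.42 and 2.92 CPM in the primary tumor sets, in the same order. Here 82 of 83 host sets were higher, and the median of the host types, 58.0 CPM, was 19.8-fold that of MM (16.4-fold in tumor-bearing mice). Tapbp read 35.6, 24.8, 26.2, 18.7 and 20.1 CPM across the same libraries. All 83 host sets exceeded every melanoma value of Tapbp, with a median of the host types of 150 CPM, 6.06-fold that of MM (4.99-fold in tumor-bearing mice).

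Nlrc5 was low in melanoma cells, where it rested on 23 to 128 UMIs a set outside metastasis MM 4. No UMI was seen in metastasis MM 4, which allows up to 2.18 CPM at 3 counts, and the other sets had 2.14, 1.34, 1.93 and 3.70 CPM. The highest set lay below 69 of the 83 host sets, and T cells had the highest median (98.2 CPM) and MM the lowest (1.93 CPM), so that the order of the low types (ciliated cells, club cells, AT-2 and fibroblasts at 3.01 to 7.05 CPM) differed by less than the spread between their libraries.

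Psmb8 and Psmb9 were low in every melanoma set but not to the same degree. Psmb8 read 5.09, 4.71 and 7.05 CPM in the metastasis sets and 17.9 and 9.82 CPM in the primary tumor sets, against a median of the host types of 140 CPM (19.9-fold, and 20.1-fold in tumor-bearing mice). Psmb9 read 2.18, 2.59, 3.50, 11.2 and 5.85 CPM, against 113 CPM (32.3-fold, and 22.6-fold in tumor-bearing mice). For both, the primary tumor sets were above the metastasis sets, and 81 and 76 of 83 host sets were above all melanoma sets. Primary MM 4, the highest melanoma set for both, supplied 94.5% of the cells of cluster 0, whose median depth was 1644 UMIs beside 4306.5 UMIs in cluster 1. Monocytes were the highest type for both subunits, at a median of 398 CPM of Psmb8 and 172 CPM of Psmb9.

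The presenting molecules differed less between tumor and host. H2-K1 read 244, 259, 246, 300 and 317 CPM in melanoma cells, and 76 of 83 host sets were higher, with NK cells first at 2154 CPM. H2-D1 read 345, 312, 389, 481 and 390 CPM, with 71 of 83 host sets higher and monocytes first at 2570 CPM. The medians of the host types were 3.71-fold and 3.84-fold those of MM (3.34-fold and 3.2-fold in tumor-bearing mice).

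B2m alone overlapped widely with the host. It was at 1129 and 1138 CPM in both MM 4 libraries and at 450, 495 and 522 CPM in metastasis MM 5, metastasis TME 5 and primary MM 5, so melanoma values split by replicate number and not by site. The number 4 libraries came from sequencing run 2 and the number 5 libraries from run 3, and the part of the run in this split was not tested. Only 49 of 83 host sets (21 of 47 in tumor-bearing mice) exceeded the highest melanoma value, and the ciliated and club cells of every library but unchallenged lung 6 were lower than all melanoma sets (85.5 to 263 CPM), whereas in unchallenged lung 6 they had 1286 and 1101 CPM.

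**Figure D1:**
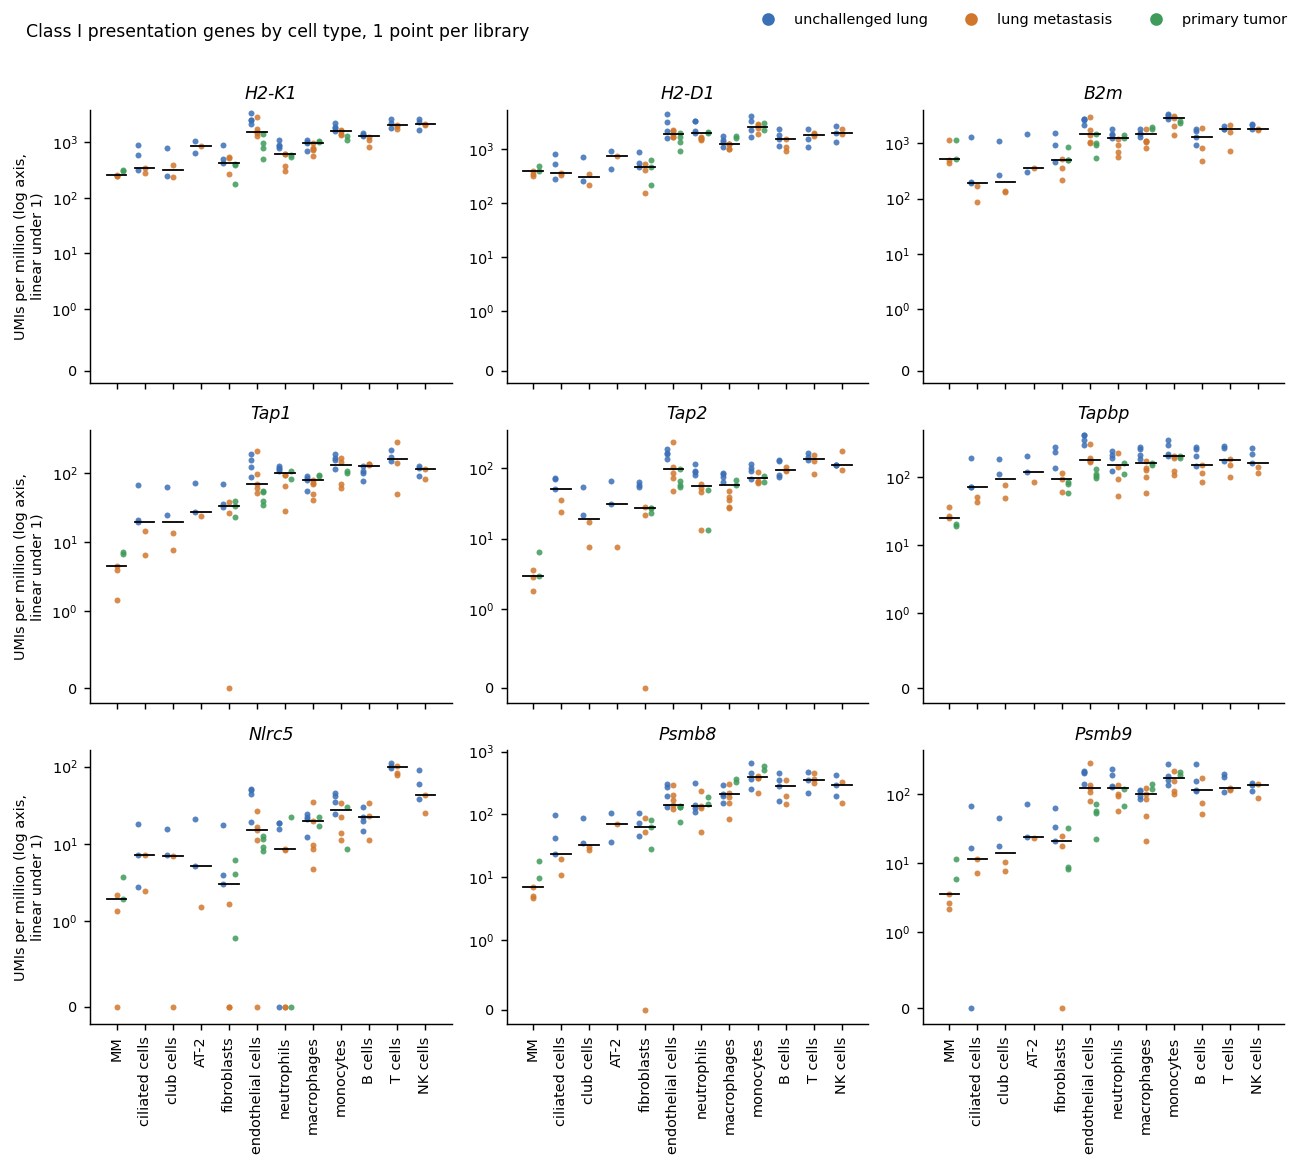
Level of each gene in CPM (log axis, linear under 1) by cell type, with 1 point per library with at least 20 such cells, colored by tissue, and a bar at the median. By the median over all libraries MM is the lowest type in the panels of Tap1, Tap2, Tapbp, Nlrc5, Psmb8, Psmb9 and H2-K1, and lies among the middle types for B2m.

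By the medians over all tissues, T cells led for Tap1, Tap2 and Nlrc5, NK cells for H2-K1, and monocytes for H2-D1, B2m, Tapbp, Psmb8 and Psmb9. The spread between libraries was wide for most types: endothelial H2-K1 ran from 494 to 3325 CPM, so that endothelium, B cells and monocytes (medians of 1554, 1272 and 1599 CPM) could not be ordered beyond it. For Nlrc5 the T cell libraries (77.2 to 113 CPM) lay above all others except 1 of NK cells (25.2 to 90.6 CPM).

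Unchallenged lung 6 stood apart among low types for 5 of the 9 genes. Its ciliated, club, AT-2 and fibroblast cells had B2m at 1101 to 1513 CPM and Nlrc5 at 15.6 to 20.8 CPM, whereas these types had 85.5 to 930 CPM of B2m and 0 to 7.13 CPM of Nlrc5 in all other libraries. In the same 4 types Tap1 was at 61.8 to 72.3 CPM against 0 to 40.0 CPM elsewhere, and Psmb8 and Psmb9 also lay above all other libraries. H2-K1 (792 to 1039 CPM against up to 865 CPM), H2-D1 (702 to 903 against up to 731 CPM), Tap2 (54.0 to 71.5 against up to 70.5 CPM) and Tapbp (179 to 233 against up to 271 CPM) overlapped. RNA of immune cells moved with it: Ptprc was at 982 CPM, Lyz2 at 3382 CPM and S100a8 at 2702 CPM in the fibroblasts of that library, against at most 111, 167 and 334 CPM in unchallenged lung fibroblasts of the others, and its part in the member levels was not tested.

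Counted per cell, after each cell was thinned to 1000 UMIs, H2-K1 was seen in a median of 23.6% of melanoma cells over the 4 sorted libraries (15.6 to 25.4%) and in 86.0% of unchallenged lung endothelial cells (84.5 to 91.5%). Tap1 was seen in 0.475% of melanoma cells (0 to 0.687%) and 13.2% of endothelial cells, and Psmb8 in 1.05% and 19.4%. The median depth was 1653 to 4386 UMIs in these melanoma cells and 1582.5 to 4413 UMIs in the endothelial cells. Without thinning, the shares were 53.7% for H2-K1, 1.80% for Tap1 and 2.77% for Psmb8 in melanoma, and 95.6%, 34.0% and 49.1% in endothelium. Class I genes are made by nearly all nucleated cells, so no type of these libraries could serve to measure the share that free RNA gives.

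The catalytic subunits of the proteasome gave a ratio of genes that does not use the total UMIs. It was taken from UMIs summed over the cells of a type in a library and not within single cells, and the part of free RNA in it was not tested. Each inducible subunit was set against its constitutive counterpart: Psmb8 against Psmb5, Psmb9 against Psmb6 and, from the wider pathway, Psmb10 against Psmb7. In melanoma cells the inducible UMIs were 1.96, 1.18, 1.5, 4.55 and 2.6% of the Psmb8 and Psmb5 pair in metastasis MM 4, metastasis MM 5, metastasis TME 5, primary MM 4 and primary MM 5. They were 0.831, 0.595, 0.803, 2.73 and 1.47% of the Psmb9 and Psmb6 pair. Every melanoma set was thus almost wholly on the constitutive side for these subunits, with exact 95% binomial intervals (counting error only) of 1.05 to 1.33% in metastasis MM 5 and 4.28 to 4.83% in primary MM 4 for the first pair.

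Psmb10 differed from both. It made up 10.0% of its pair in metastasis MM 4 but 32.0, 30.6, 24.2 and 31.0% in the other melanoma sets, and these 4 lay within the range of ciliated cells (20.0 to 49.6%) and neutrophils (14.3 to 50.0%). Monocytes had 57.3 to 75.7% inducible for Psmb8 and 58.7 to 72.3% for Psmb10, T cells 63.8 to 79.0% for Psmb8, and fibroblasts a median of 31.9% for Psmb8 and 12.4% for Psmb9. Ciliated cells had a median of 9.22% for Psmb8 (4.02 to 38.4%) and 2.25% for Psmb9 (0 to 32.9%), with the highest share of both in unchallenged lung 6. Their Psmb8 shares in the 2 metastasis libraries, 4.02 and 5.66%, came with Dct at 1112 to 3751 CPM, and the part of melanoma RNA in them was not tested.

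**Figure D2:**
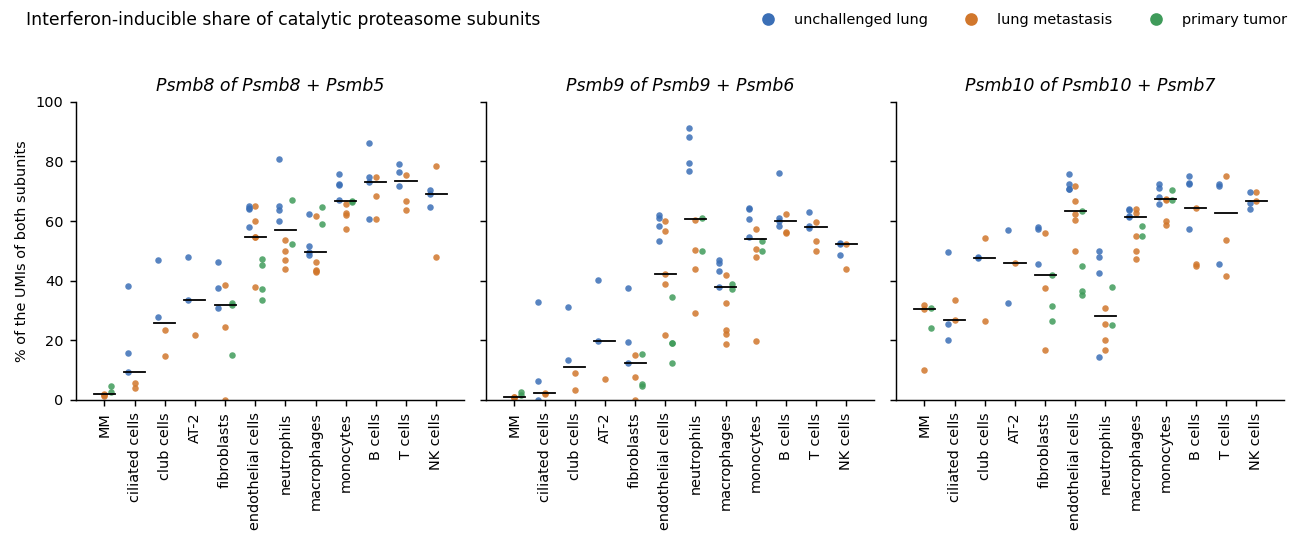
Share of the inducible subunit among the UMIs of an inducible and constitutive pair (%), by cell type, 1 point per library, colored by tissue, with a bar at the median. Melanoma cells (MM) lie at 1.18 to 4.55% for Psmb8 and 0.595 to 2.73% for Psmb9, but at 10.0 to 32.0% for Psmb10.

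The sort itself, without any cell type call, allowed a test. Summing every barcode of a library, Tap1 was at 19.6 and 4.46 CPM in the metastasis MM libraries (4 and 5) and 6.95 and 7.04 CPM in the primary MM libraries, against 83.6, 94.5, 17.2 and 32.6 CPM in metastasis TME (1-3, 4, 5 and 6) and 85.5, 84.1, 29.3 and 28.1 CPM in primary TME (1-3, 4, 5 and 6). The groups overlapped only through metastasis MM 4, in which 269 of 638 cells were MM, and metastasis TME 5, which holds 1996 melanoma cells. In sums over whole libraries, fewer cells of a type and less RNA per cell cannot be told apart.

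In edgeR's quasi-likelihood test with Benjamini-Hochberg adjustment over all 14972 genes tested, 2 of the 9 were lower in MM than in TME libraries: Tap1 by log2 -2.49 (SE 0.66, adjusted p = 0.0426) and Tapbp by log2 -1.77 (SE 0.46, adjusted p = 0.0422). Of all genes 7.51% were lower, and 491 genes were higher against 1124 lower (218 against 1147 when libraries were scaled by RLE, DESeq2's kind of size factor, instead of TMM). Tap2 (log2 -2.55), Psmb8 (-3.11), Psmb9 (-2.74), Nlrc5 (-2.08), H2-K1 (-1.18) and H2-D1 (-1.20) had unadjusted p-values under 0.05 but adjusted values of 0.0518 to 0.122 by edgeR, and B2m differed by -0.47 (adjusted p = 0.555). At an unadjusted p under 0.05, 8 of 9 were lower, beside 21% of all genes. DESeq2 called 8 of 9 lower, all but B2m (background 21.5%). By the names kept, MM and TME libraries of a site and number came from the same mouse. With the replicate number as a block 5 of 9 were lower in edgeR (Tap1, Tap2, Tapbp, Psmb8 and Psmb9, background 5.06%). Leaving out 1 library at a time, no member was called without metastasis MM 5, metastasis TME 1-3, 4 or 6, primary MM 4 or 5, or any primary TME library, while 4 were called without metastasis MM 4 (background 11.3%) and 6 without metastasis TME 5 (background 16.3%). Without primary MM 4 or primary MM 5 no gene at all passed. Genes called in all moved between these fits, so the counts are a description and not a result about the members.

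When only MM cells of the MM libraries and only cells not named MM of the TME libraries were summed, 8 of 9 were lower, all but B2m, from log2 -1.38 for H2-K1 (edgeR, adjusted p = 0.0318) to log2 -4.21 for Psmb8 (edgeR, adjusted p = 0.00287). The background was then 26.3% of genes. No difference between lung metastasis and primary tumor in the MM to TME contrast was called for any of the 9 (0 by edgeR or DESeq2, 0 with an unadjusted p under 0.05, background 0%), with SEs of 0.86 to 1.61 on the log2 scale.

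The rest of the pathway was read from 55 further genes in 6 lists. In the same edgeR comparison 12 of 53 tested were lower in MM libraries and 0 higher, beside 7.51% of all genes lower, 10 of them among 14 interferon response genes. By name these included Iigp1, an interferon-inducible GTPase (log2 -3.85, SE 0.66, edgeR adjusted p = 0.0218), Isg15, an interferon-induced ubiquitin-like protein (log2 -2.44, SE 0.61, edgeR adjusted p = 0.0393), and Stat2, a transcription factor of the type I interferon response (log2 -1.78, SE 0.32, edgeR adjusted p = 0.0218). Iigp1 was at 0.630 to 5.15 CPM in the MM libraries and 12.9 to 81.0 CPM in the TME libraries. The median difference was log2 -1.48 over those 53, beside -2.08 over the 9 members and -0.07 over all genes.

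Between sites, sorted melanoma cells gave no call for any of the 9. Psmb8 (5.09 and 4.71 CPM in lung metastasis against 17.9 and 9.82 CPM in primary tumor) differed by log2 -1.61 (SE 0.47, unadjusted p = 0.00296, edgeR adjusted p = 0.611). Psmb9 (2.18 and 2.59 against 11.2 and 5.85 CPM) differed by log2 -1.87 (SE 0.54, unadjusted p = 0.00308, edgeR adjusted p = 0.618). The values of the sites did not overlap for either gene, but metastasis MM 4 rests on 7 UMIs of Psmb8 and 3 of Psmb9. Its exact Poisson 95% intervals (2.05 to 10.5 CPM and 0.450 to 6.38 CPM) reach the values of primary MM 5. The 1996 melanoma cells of metastasis TME 5, which the test did not use, had 7.05 CPM of Psmb8 and 3.50 CPM of Psmb9, also under both primary tumor libraries. By the names kept, they came from the same mouse as metastasis MM 5 and primary MM 5, so they are no further replicate.

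These were the 2 of 9 with an unadjusted p under 0.05, where 1.61% of all genes were lower at that threshold, DESeq2 called 0 of 9, and 1 of 14267 genes (0.00701%) was called by edgeR in all. With the replicate number as a block the calls were 125 genes (0.876%) and 0 of the 9. Summing all barcodes instead of MM cells turned the sign for both, to log2 0.33 for Psmb8 and 0.0073 for Psmb9, where metastasis MM 4 then brings in its cells not named MM. In the cells of melanoma cluster 1 alone, an alternative added after seeing the data, neither of these genes was called. With 2 libraries against 2, of which 1 holds 269 cells, the SEs of the members' log2 differences were 0.37 to 0.79.

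**Figure D3:**
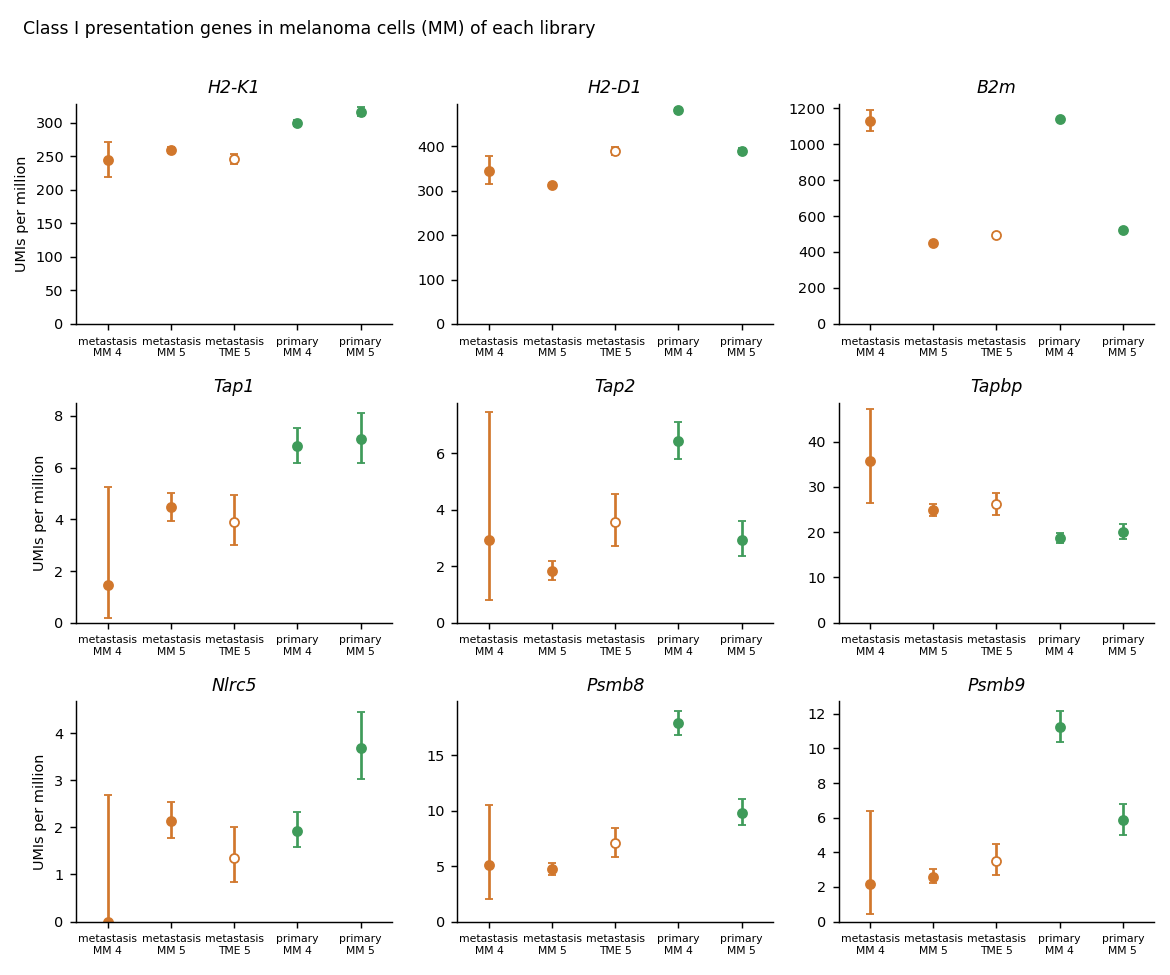
Level of each gene in melanoma cells (MM) of each library, in CPM, with exact Poisson 95% intervals that cover counting error only. Open points are melanoma cells found in metastasis TME 5, which no test used, and B2m separates both MM 4 libraries from the other 3 sets.

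Of the host types, only endothelial cells, fibroblasts and macrophages were tested between tissues. Among them endothelial cells gave the most calls of members, from the most libraries (12, beside 10 of macrophages and 8 of fibroblasts). In endothelial cells 7 of the 9 were lower in primary tumors than in unchallenged lungs, all but H2-D1 and Psmb8. Over all endothelial cells the fitted level of lung metastases lay between for each of the 9, though most of these differences were not called. They were log2 0.35 to 1.46 against primary tumors and -1.36 to -0.15 against lungs. In the only endothelial cluster found in all 3 tissues, by contrast, metastases lay with the primary tumors for H2-K1. The endothelial cells came from 12 libraries, 4 for each tissue, with 51 to 1753 cells, and the name rests on 14 markers such as Pecam1 and Cdh5. The contrast of primary tumor with unchallenged lung was added after seeing the data, from the same fit. Primary tumors grew under the skin, and no skin without tumor was sampled. In every contrast of host cells with primary tumors, the part of the tumor and that of the organ thus cannot be told apart. Endothelium is in constant contact with circulating T cells and shows them class I complexes.

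In unchallenged lungs 1, 4, 5 and 6 endothelial H2-K1 was at 3325, 2487, 2503 and 2158 CPM. In lung metastases (1-3, 4, 5 and 6) it was at 2888, 1756, 1554 and 1485 CPM, and in primary tumors (1-3, 4, 5 and 6) at 1382, 773, 953 and 494 CPM. Primary tumors lay below every library of the other tissues, and metastasis 1-3 was the only metastasis within the range of the lungs. The primary tumor level was lower than that of unchallenged lung by log2 -1.45 (SE 0.32, edgeR adjusted p = 0.00318).

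Tapbp was at 295, 342, 416 and 417 CPM in unchallenged lungs, 306, 187, 169 and 165 CPM in metastases and 132, 108, 104 and 97.1 CPM in primary tumors. The 3 tissues were separate but for metastasis 1-3, and primary tumors were lower than lungs by log2 -1.65 (SE 0.22, edgeR adjusted p = 8.17e-05). Psmb9 was at 215, 204, 208 and 139 CPM in lungs, 285, 79.2, 105 and 121 CPM in metastases and 71.9, 56.0, 52.5 and 22 CPM in primary tumors, lower in primary tumors by log2 -1.90 (SE 0.38, edgeR adjusted p = 0.00178). Again no primary tumor library reached any lung or metastasis library.

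Nlrc5 was at 43.6, 19.1, 49.8 and 51.9 CPM in lungs, 26.3, 16.7, 11.3 and 14.9 CPM in metastases and 7.99, 11.4, 12.8 and 9.10 CPM in primary tumors. These levels rest on few UMIs of Nlrc5 in the small sets. The endothelial cells of metastasis 1-3 held 189774 UMIs of all genes, and those of primary tumor 1-3 held 250328. All primary tumors lay below all lungs, and the difference was log2 -1.82 (SE 0.36, edgeR adjusted p = 0.00141). Tap1 (log2 -1.45), Tap2 (-1.19) and B2m (-1.27) were also lower in primary tumors, with edgeR adjusted p-values of 0.00613, 0.0166 and 0.0144.

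H2-D1 (-0.85, edgeR adjusted p = 0.0669) and Psmb8 (-0.85, edgeR adjusted p = 0.0501) missed the threshold, so 7 of 9 were lower in primary tumor endothelium, where 13.8% of the 9761 genes tested were. Psmb8 was at 303, 277, 194 and 129 CPM in lungs and 132, 136, 129 and 75.1 CPM in primary tumors, which overlapped. H2-D1 overlapped too, at 4474, 3106, 2117 and 1589 CPM against 1957, 1328, 1656 and 914 CPM. Across the alternatives, leaving out each library included, 5 to 9 of the 9 were lower and none was higher. The share of all genes lower also differed by setting, with 8.74% in cells without melanoma UMIs, 11.3% in the shared cluster and 14.2% within sequencing run 3.

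**Figure D4:**
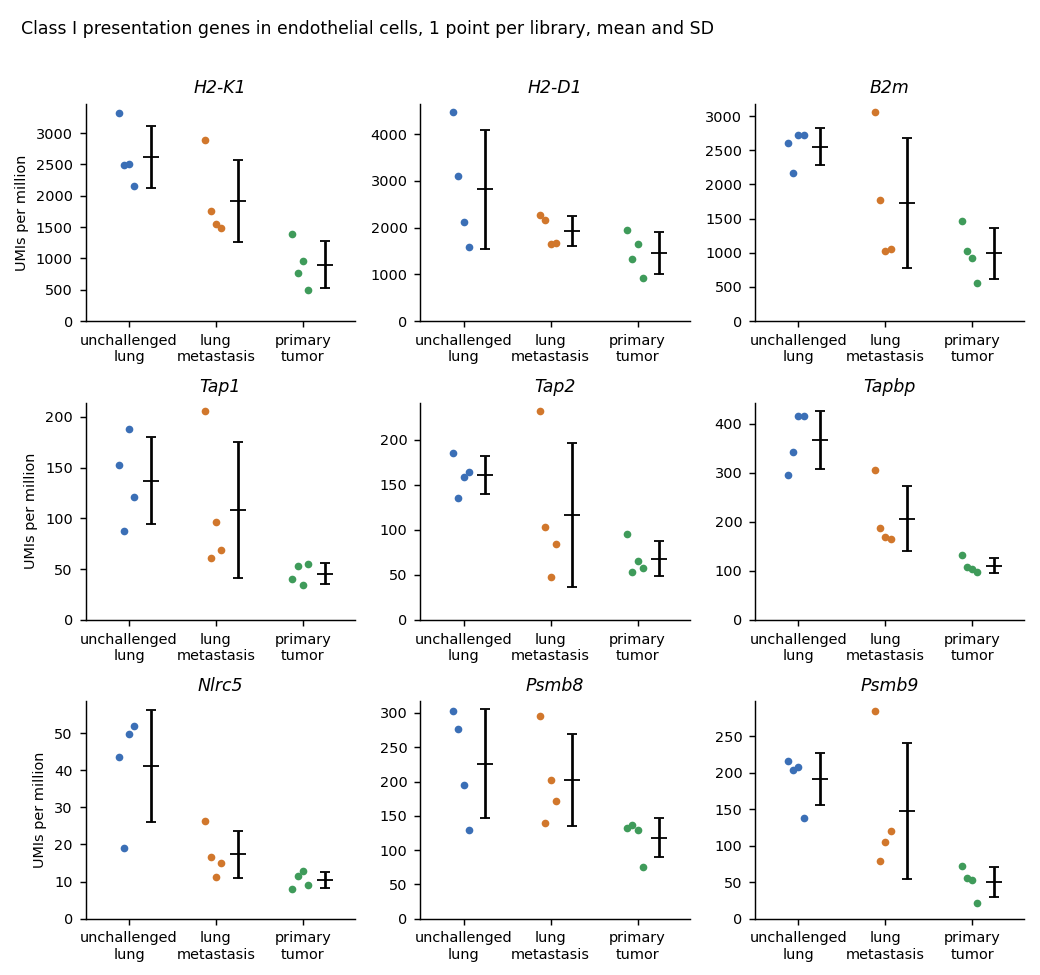
Level of each gene in endothelial cells, in CPM, with 1 point per library for 4 unchallenged lungs, 4 lung metastases and 4 primary tumors, and the mean with its SD in black. Primary tumors lie below all unchallenged lungs for every gene but H2-D1 and Psmb8, and metastasis 1-3 is the highest metastasis for all 9 genes.

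Lung metastases against primary tumors gave 3 of 9 higher: H2-K1 by log2 1.03 (SE 0.31, edgeR adjusted p = 0.0456), Tapbp by 0.83 (SE 0.22, edgeR adjusted p = 0.0253) and Psmb9 by 1.46 (SE 0.39, edgeR adjusted p = 0.0255), where 6.69% of all genes were higher. These calls fell to 0 without metastasis 1-3, without primary tumor 4, without primary tumor 5 or without primary tumor 6. The number of all genes called moved between settings too, so such counts are a description and not a result about the members. Lung metastases against unchallenged lungs gave 1 of 9 lower, Nlrc5 by log2 -1.36 (SE 0.34, edgeR adjusted p = 0.0392), with 0.625% of all genes lower. As given above, Nlrc5 rests on few UMIs in the small sets. Tapbp followed at log2 -0.82 (SE 0.21, edgeR adjusted p = 0.0511). The count was 3 without metastasis 1-3 (background 0.961%) and 0 without metastasis 5 or 6, primary tumor 4, 5 or 6, or lung 1, 5 or 6. Genes called in all moved between settings here as well, so these counts too are a description. With the replicate number as a block Tapbp was called (log2 -1.05, edgeR adjusted p = 0.0319, background 0.625%) and Nlrc5 was not. For unchallenged lungs this block joins libraries of different mice. Lung 1, the only library of its number, then adds nothing to the contrasts, and the same holds in macrophages. The 3 contrasts of endothelium share their libraries.

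The endothelium of the tissues was not made of the same subsets. Cluster 5, led by Npr3, Glp1r and Gpihbp1, and cluster 17, led by Car4 and Ednrb, reached 20 cells in no primary tumor library but in all 4 lungs, while cluster 14, led by Slc6a2 and Vwf, was found in all 3 tissues. Clusters 5 and 17 made up 62.6% and 21.7% of lung endothelium, 44.5% and 14.5% of that of metastases, and 1.28% and 0.365% of that of primary tumors. The paper states that its metastasis samples held some adjacent tissue without tumor, and the part of that tissue in the levels was not tested. Clusters were formed from these same cells, so their differences from each other are not results.

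Within cluster 14 alone, an analysis added after seeing the data, 7 of 9 were lower in primary tumor than in unchallenged lung (background 11.3%), the same 7 genes as before. H2-K1 of cluster 14 was at 2644, 1977, 1916 and 2110 CPM in lungs, 976, 950 and 1019 CPM in the 3 metastases that had 20 such cells and 1131, 773, 953 and 494 CPM in primary tumors. Lung metastases there were lower than lungs for 6 of 9 (background 3.43%), H2-K1, B2m, Tap2, Tapbp, Nlrc5 and Psmb9, from log2 -1.08 to -1.71, with edgeR adjusted p-values of 0.00671 to 0.0411. Against primary tumors 0 of 9 were called (edgeR, 0 with an unadjusted p under 0.05; DESeq2 was not run on this cluster), where 2.13% of genes were higher, and the SE of the log2 difference was 0.29 to 0.52.

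**Figure D5:**
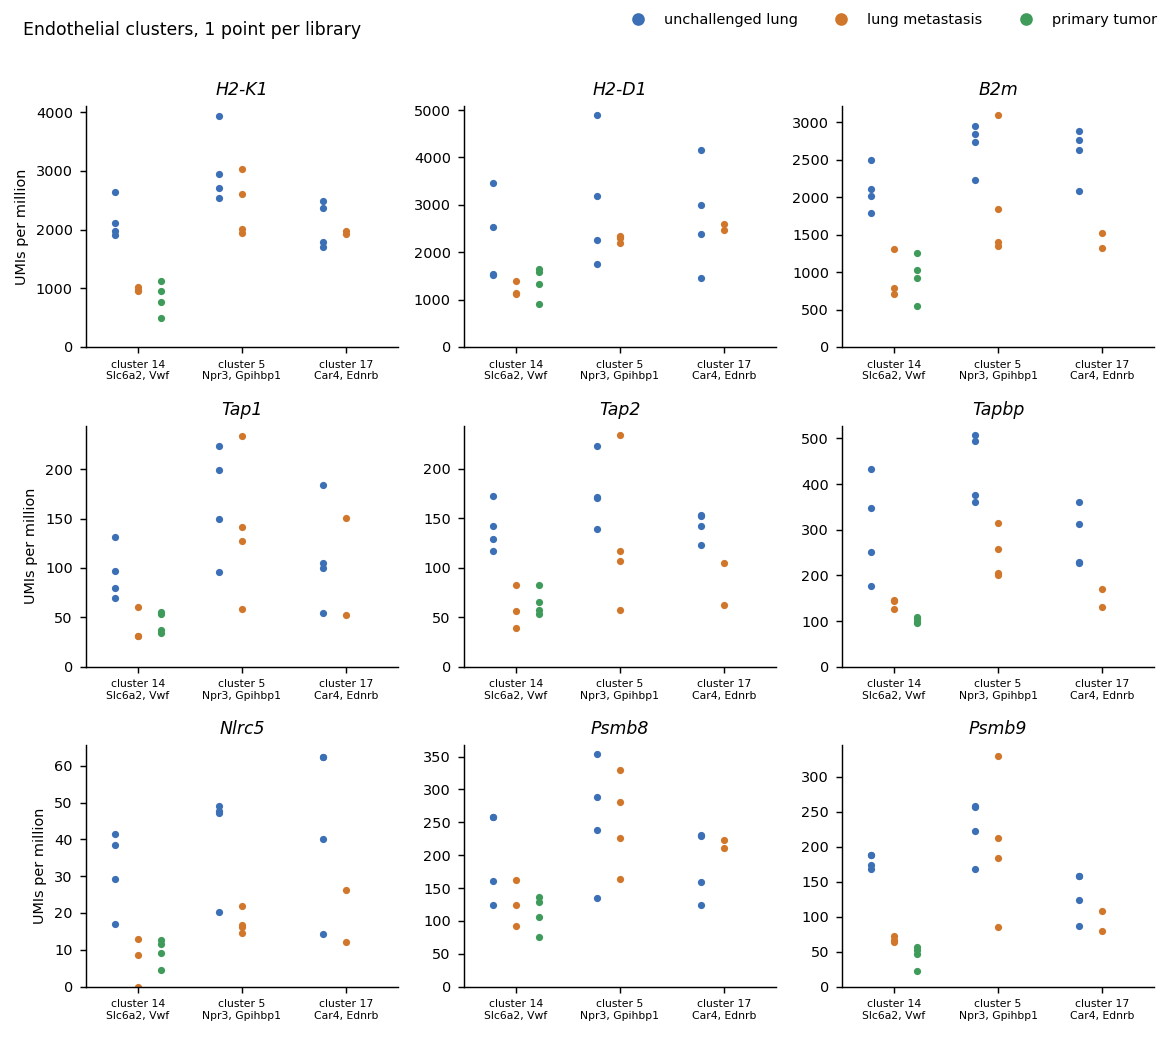
Level of each gene in 3 endothelial clusters, in CPM, with 1 point per library that had at least 20 cells of the cluster, colored by tissue. Primary tumors appear in cluster 14 only, where H2-K1 of 3 metastases (950 to 1019 CPM) lies with the primary tumors (494 to 1131 CPM) and below the lungs (1916 to 2644 CPM).

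RNA of other cell types moved with tissue in these cells. Dct was at 0.287 to 2.43 CPM in endothelial cells of unchallenged lungs, 335 to 5732 CPM in those of metastases and 148 to 1326 CPM in those of primary tumors. Of the immune genes followed, Ptprc was at 9.72 to 223 CPM in lungs, 0.354 to 86.8 CPM in metastases and 0 to 44.5 CPM in primary tumors, Lyz2 at 93.6 to 409, 51.8 to 126 and 0 to 289 CPM, and S100a8 at 0.574 to 730, 3.05 to 82.6 and 0 to 10.2 CPM, and lungs and primary tumors overlapped for each. Cd74, the invariant chain of MHC class II, was at 389 to 3012 CPM in lungs, 327 to 2403 CPM in metastases and 0.758 to 372 CPM in primary tumors, without overlap of lungs and primary tumors. The part of immune RNA in the member levels was not tested. Among endothelial cells without any UMI of Dct, Pmel, Mlana or Tyrp1, which left 8 libraries, 5 of 9 were still lower in primary tumor than in lung (H2-K1, B2m, Tap2, Tapbp and Psmb9; background 8.74%) and 1 was higher in metastasis than in primary tumor (Psmb9; background 3.72%). None was called between metastasis and lung by edgeR (0 of 9, with 1 lower at an unadjusted p under 0.05 beside 5.69% of all genes, DESeq2 not run on these cells), where 0% of all genes were lower. Within sequencing run 3, with 2 libraries a tissue, the counts were 7 (background 14.2%), 1 (Psmb9; background 4.08%) and 4 (B2m, Tap2, Tapbp and Nlrc5; background 8.71%).

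Endothelial proteasome subunits differed between primary tumors and lungs too. The inducible share was 58.0 to 65.1% for Psmb8, 53.3 to 62.0% for Psmb9 and 70.6 to 75.8% for Psmb10 in unchallenged lungs. In primary tumors it was 33.6 to 47.1%, 12.2 to 34.6% and 35.1 to 63.4%, below all lungs for each subunit. Metastases ranged from 37.9 to 65.1% for Psmb8 and from 21.7 to 60.0% for Psmb9, overlapping both.

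Of the other pathway genes in endothelium, 23 of 51 tested were lower and 3 higher in primary tumor than in unchallenged lung (edgeR), beside 13.8% lower and 14.1% higher of all genes, with a median of log2 -0.73 beside -0.03 over all genes. All 8 tested heavy chains outside the members were lower, among them H2-T23 (log2 -1.73), the ligand of NKG2 receptors on NK cells, and H2-Q7 (-1.84). Irf1, the interferon regulatory factor that acts on class I promoters, was lower by log2 -2.06 (SE 0.27, edgeR adjusted p = 7.36e-05), Tapbpl, a tapasin relative, by -2.12 (SE 0.31, edgeR adjusted p = 0.000152) and Igtp, an interferon-inducible GTPase, by -2.36 (SE 0.50, edgeR adjusted p = 0.00273). Irf8, an interferon regulatory factor best known from myeloid cells, was higher by log2 2.12 (SE 0.47, edgeR adjusted p = 0.0037).

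Between lung metastasis and primary tumor 8 of 51 were higher and 1 lower (6.69% and 4.87% of all genes), with H2-Q6 (log2 2.03), H2-Q7 (1.86) and Irf1 (1.46, SE 0.28, edgeR adjusted p = 0.0033) among those higher. Jak2, a kinase of the interferon-gamma receptor, was lower in metastasis by log2 -1.30 (SE 0.23, edgeR adjusted p = 0.00231). Between lung metastasis and unchallenged lung 1 of 51 was lower (0.625% of all genes), Erap1, which trims peptides in the endoplasmic reticulum (log2 -0.74, SE 0.19, edgeR adjusted p = 0.0488).

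Fibroblasts, which build the matrix of lung and tumor, gave fewer calls, from 2 metastasis, 3 primary tumor and 3 unchallenged lung libraries, and Nlrc5 was too low to be tested. Tap2 was at 57.2, 53.6 and 63.7 CPM in lungs 4, 5 and 6, 21.6 and 28.0 CPM in metastases 5 and 6, and 27.6, 27.0 and 23.2 CPM in primary tumors 4, 5 and 6. No tumor library reached any lung library. It was lower in primary tumor than in lung by log2 -1.10 (SE 0.26, edgeR adjusted p = 0.0274).

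Tapbp, at 136, 271 and 233 CPM in lungs and 82.7, 78.3 and 57.2 CPM in primary tumors, was lower by log2 -1.5 (SE 0.35, edgeR adjusted p = 0.0256). Thus 2 of 8 were lower, with 6.83% of all genes lower, and the count fell to 0 without primary tumor 5, primary tumor 6 or lung 5 and to 1 without metastasis 6, primary tumor 4 or lung 6. With the replicate number as a block only Tapbp was called (edgeR adjusted p = 0.0444; background 7.06%). The count was also 0 in fibroblasts without melanoma UMIs. Genes called in all moved between settings too, so these counts are a description only. The fit of the fibroblast cluster shared by all tissues had 1 lung library and cannot decide on these calls. Over all 16 alternatives the log2 difference stayed below 0 for both genes, at -1.86 to -1.05 for Tapbp and -1.20 to -0.206 for Tap2. The tissues held different subsets: cluster 8, led by Inmt and Clec3b, made up 98.1% of lung fibroblasts and 0.0416% of those of primary tumors. The shared cluster, 18, reached 20 cells in only 1 lung library and made up 1.90% of lung, 65.6% of metastasis and 32.7% of primary tumor fibroblasts. It raised 9 of 10 fibroblast markers but also 6 of pericytes and smooth muscle, with Rgs5 among its leading genes. No cluster was named as those cells, and their part in the contrasts was not tested. Cluster 15 made up 67.2% of primary tumor fibroblasts, and 95.7% of its cells came from primary tumor 6. Immune RNA was high in the fibroblasts of lung 6, as given above. Melanoma RNA moved with tissue, with Dct at 0 to 3.88 CPM in lung fibroblasts, 812 to 3302 CPM in those of metastases and 367 to 3802 CPM in those of primary tumors. In cells without melanoma UMIs the median sum of the 9 genes in primary tumor fibroblasts was 2592 CPM instead of 1571 CPM. That median covers only the libraries that still held 20 such cells, so a change of cells and one of libraries cannot be told apart.

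Neither contrast of fibroblasts from lung metastases gave a call among the 8. Against unchallenged lung 1.11% of genes were called, with 2 of 8 lower at an unadjusted p under 0.05, beside 9.01% of all genes (Tap2, log2 -1.21, edgeR adjusted p = 0.101, and Tapbp, log2 -1.0, edgeR adjusted p = 0.223). Against primary tumor 1.11% were called, with 0 of 8 at an unadjusted p under 0.05. DESeq2 called 0 of 8 in both. Metastasis fibroblasts had H2-K1 at 539 and 518 CPM, beside 385, 406 and 173 CPM in primary tumors and 428, 500.2 and 894 CPM in lungs.

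Macrophages, which take up and cross-present antigens, gave 0 of 9 calls by edgeR in each contrast (4 metastasis, 2 primary tumor and 4 lung libraries). Here too the tissues held different subsets. Cluster 6, led by C1qb, C1qc and Ccl8, made up 100% of the macrophages of primary tumors, 67.1% of those of metastases and 9.02% of those of lungs, whose others fell in clusters 3 and 21, with Chil3 and Ear1, markers of alveolar macrophages, among their leading genes. Against primary tumors, 7 of 9 were lower in metastases at an unadjusted p under 0.05, with log2 differences from -0.67 for Psmb9 to -1.12 for Nlrc5 and edgeR adjusted p-values of 0.237 to 0.507. At that unadjusted threshold 3.56% of all genes were lower, and 0.698% of genes were called after adjustment. DESeq2 called 0 of 9 here. Tap1, for example, was at 50.3, 71.6, 80.4 and 40.8 CPM in metastases and 89.7 and 94.4 CPM in primary tumors, with no overlap.

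Against unchallenged lungs, Tap2 in macrophages of metastases was at 47.8, 39.0, 28.4 and 27.2 CPM beside 64.5, 81.5, 75.2 and 84.1 CPM, which did not overlap (log2 -0.93, SE 0.24, edgeR adjusted p = 0.068). At an unadjusted p under 0.05, 3 of 9 were lower, beside 9.26% of all genes, and 1.99% of genes were called. DESeq2 called 1 of 9, Tap2 (background 1.7%), as did edgeR with the replicate number as a block (edgeR adjusted p = 0.0284; background 2.43%), and without metastasis 1-3 edgeR called 2 (background 1.56%). In the macrophage cluster found in all 3 tissues, cluster 6, examined after seeing the data, 3 of 9 were lower in metastasis than in lung (background 3.56%): Tap2 (log2 -1.40, edgeR adjusted p = 0.00702), Tapbp (-1.05, edgeR adjusted p = 0.0262) and Nlrc5 (-1.61, edgeR adjusted p = 0.0248). Nlrc5 rests on few UMIs there, since all macrophages of metastases 4 and 5 held 153704 and 211505 UMIs of all genes.

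Primary tumor against unchallenged lung macrophages gave 0 of 9, with 1 of 9 at an unadjusted p under 0.05 (Psmb8, log2 0.88, edgeR adjusted p = 0.0819; 13.9% of all genes were higher at that threshold), DESeq2 calling 0 of 9, and 15.9% of all genes called. Without unchallenged lung 4 it gave 1 of 9, no larger a share than the 15.9% of all genes called in the main fit, so this count is a description only. Of the other pathway genes 8 of 52 were higher and 1 lower there, beside 6.23% higher and 9.66% lower of all genes, the higher ones including Isg15 (log2 2.00, SE 0.56, edgeR adjusted p = 0.0277) and Ifnar2, a chain of the type I interferon receptor (1.06, SE 0.25, edgeR adjusted p = 0.0118).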

How the data were processed

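Single-cell RNA-seq libraries (10x 3′ v3.1) were deposited by the authors as raw UMI counts per gene and barcode in a single table of 110283 barcodes, with Cell Ranger 6.1.1 and Seurat 3.2.2 named in the submitters' processing notes. A second, normalised table was not used. Libraries whose cells were identical were counted once, leaving 100359 cells in 16 libraries of 1777036 to 60339415 UMIs, with 303 to 30419 cells each. Samples were grouped from the labels, and replicates 1-3 pooled several mice. Unchallenged lung 1, metastasis MM 5 and primary MM 4 and 5 carry other replicate numbers in the deposited table: the first was matched as the only lung left, the others by the mouse and run of the TME library of that number, and the pairing by number rests on this.

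Counts were clustered with Seurat 5.3.0 in R 4.3.3 (2000 variable genes less 6 class I genes, 17 components, resolution 0.5), and 23 of 24 clusters were named from at least 3 raised markers. No doublet caller was run. Counts were summed per cell type and library with at least 20 cells, filtered with filterByExpr, scaled by TMM and tested with edgeR 4.0.16's quasi-likelihood test, with Benjamini-Hochberg adjustment over all genes tested and a threshold of 0.05. The code was tested on simulated data. DESeq2 1.42.0, RLE scaling, no filter, the replicate block, each library left out and restricted cell sets were the alternatives, and the restriction to a shared cluster and the primary tumor against unchallenged lung contrasts were added after seeing the data. Intervals at 95% and the floor of 3 counts cover counting error only.

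The 9 members were always named. Of the pathway lists, at most 10 called genes per comparison with the largest fold and a mean of at least 20 CPM were. Members and lists were chosen with earlier results of these data known. By the names kept, MM and TME libraries of a site and number came from the same mouse, and so did metastasis and primary tumor libraries of numbers 5 and 6. Those of 1-3 shared 2 of their mice, but number 4 and the unchallenged lungs came from other mice. The identical libraries that were dropped carry other mouse names, so which mouse the kept TME counts of 5 and 6 came from is uncertain. Correlations of the deviations of same-numbered libraries were 0.0379 to 0.653 for MM and TME libraries, 0.416 for sorted MM cells, and -0.11 to 0.202 for host cell types.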

Additional observations from a re-analysis of the deposited data

Results flagged for a closer look

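Of 81 sets of 4 libraries (1 gene in 1 cell type and tissue), 7 had a library far from the others, where chance alone marks about 5%. In endothelial cells these were Tapbp of metastasis TME 1-3 at 306 CPM (others 165 to 187 CPM), Psmb8 of primary tumor TME 6 at 75.1 CPM (others 129 to 136 CPM) and Psmb9 of unchallenged lung 6 at 139 CPM (others 204 to 215 CPM). B2m of macrophages in metastasis TME 1-3 was at 1797 CPM (others 1040 to 1100 CPM), and Psmb8 of monocytes in metastasis TME 4 was at 223 CPM (others 386 to 409 CPM). In neutrophils of unchallenged lung 1, Nlrc5 was at 0 CPM (others 15.7 to 18.9 CPM) and Psmb8 at 318 CPM (others 111 to 140 CPM). That set held 28 cells and 66036 UMIs, too few for a count of 0 to set Nlrc5 apart from the others.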

How the results depend on the processing

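Of 105 member results under 1781 alternatives in all, the 15 called ones kept their call in 208 of 286 and turned sign in 0. Counts of members called moved as follows, and the cause was not tested. The number of all genes called moved between these settings too, over the ranges given in the next paragraph. A count listed here is thus a description of how calls depend on the setting and not a result about the members. MM against TME libraries (2 called): 8 by DESeq2, 8 with MM cells against cells not named MM, 5 with the replicate block, 1 with no filter, and 0 to 6 leaving out each library. Endothelium of metastasis against primary tumor (3): 0 in the shared cluster, 1 in cells without melanoma UMIs, 1 within run 3, and 0 to 3 leaving out libraries. Endothelium of metastasis against lung (1): 6, 0 and 4 in the same order, 2 by DESeq2, 2 with no filter, and 0 to 3. Endothelium of primary tumor against lung (7): 5 to 9. Fibroblasts of primary tumor against lung (2): 1 with at least 10 cells, 1 with no filter, 1 with the replicate block, 0 without melanoma UMIs, and 0 to 2. Macrophages of metastasis against lung (0): 3 in the shared cluster, 2 within run 3, 1 by DESeq2, 1 with no filter, 1 with the replicate block (Tap2), and 0 to 2. Macrophages of primary tumor against lung (0): 1 without melanoma UMIs, 1 with no filter, and 0 to 1. With the replicate block Tap2, Psmb8 and Psmb9 were gained for MM against TME libraries, Tap2 was lost in fibroblasts, and endothelial metastasis against lung moved from Nlrc5 to Tapbp. Beyond these and Tap2 of macrophages the block changed no call of a member.

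Melanoma Psmb8 and Psmb9 between sites turned sign with all barcodes (log2 0.33 and 0.0073) and with all 4 MM and TME groups fitted together (0.38 and 0.059). Summed over the 9 genes in cells without melanoma UMIs, the median of metastasis endothelium rose from 5561 to 7925 CPM, and that of primary tumor fibroblasts from 1571 to 2592 CPM. There 47 of 198 medians of a gene in a cell type and tissue moved by more than the spread between libraries. These medians cover only the libraries that still held 20 such cells, so a change of cells and one of libraries cannot be told apart. With all its cells, metastasis endothelium was at 9559, 6269, 4853 and 4839 CPM in 1-3, 4, 5 and 6. Shares of cells with a UMI, not thinned or at 2000 UMIs, were 53.7% and 40.3% for H2-K1 and 1.80% and 1.24% for Tap1 in MM, 2.77% for Psmb8 in MM not thinned, and 95.6% and 97% (H2-K1), 34.0% and 23.6% (Tap1) and 49.1% and 36.9% (Psmb8) in endothelium. Genes called in all ranged over all settings from 0 to 6672 (MM against TME; 1615 reported), 0 to 125 (MM between sites; 1), 294 to 1519 (endothelium, metastasis against primary tumor; 1128), 2 to 2228 (against lung; 324), 1589 to 3327 (primary tumor against lung; 2723), 2 to 443, 0 to 707 and 0 to 2485 (fibroblasts; 124, 123 and 1349), 0 to 423, 10 to 826 and 352 to 2838 (macrophages; 78, 223 and 1776), and 0 to 103 for the difference between sites (0). Cells without melanoma UMIs for both fibroblast contrasts of metastasis, and run 3 alone for macrophages of primary tumors, were not run for lack of libraries. Nlrc5, Tap1, Tap2, Psmb8 and Psmb9 in melanoma rest on at most 7 UMIs each in metastasis MM 4, which limits any statement on them there.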

Other observations

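One cluster of 2155 cells stayed unnamed. It was led by the cartilage collagen genes Col2a1 and Col10a1 with Ccn2 and Wnt4, only 2 of its cells came from unchallenged lungs, and it held at least 20 cells in 9 libraries. Its class I levels were low, with medians of 279 CPM for H2-K1 (152 to 405), 457 CPM for B2m (230 to 854), 6.25 CPM for Tap1 (3.61 to 16.9), 4.73 CPM for Tap2 (2.40 to 20.0), 11.2 CPM for Psmb8 (4.73 to 36.9) and 28.4 CPM for Tapbp (16.2 to 39.1). The inducible subunit made up a median of 8.16% of the Psmb8 and Psmb5 pair and 1.79% of the Psmb9 and Psmb6 pair there.

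Over 30 sums of a cell type in a tissue, the genes outside the members whose level was most like the mean of the 9 were Dtx3l (Pearson r 0.952), H2-T23 (0.944), Il2rg (0.943), Gm4070 (0.932) and Nfatc1 (0.931). The sums share libraries, so these values are descriptions. Among the 9, Psmb9 (0.959) and Tap1 (0.958) were closest to the mean of the other members and B2m (0.801) farthest.

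In fibroblasts of primary tumors against unchallenged lungs, 3 of 51 other pathway genes were lower and 1 higher by edgeR, no larger a share than the 6.83% of all genes that were lower and the 589 of 11126 that were higher, so the values are given as a description. Ifngr1, a chain of the interferon-gamma receptor, was lower by log2 -1.90 (adjusted p = 0.0235), Irf8 by -3.20 (adjusted p = 0.047), and Isg15 was higher by 1.33 (adjusted p = 0.0426). In metastasis against lung H2-T23 was the 1 of 51 called, lower by log2 -2.29 (edgeR adjusted p = 0.0325), where 15 of all 11126 genes were lower. Immune RNA was high in the fibroblasts of unchallenged lung 6 (Ptprc 982 CPM), and its part in these values was not tested.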
